A study of Ictidomys tridecemlineatus with 31 samples.

Results

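The genes described here are 10 genes that kidney endothelial cells use: Kdr, Nrp1, Flt1, Pecam1, Tek, Emcn, Ehd3, Cdh5, Eng and Nos3. They were chosen by name, as the rows of the deposited kidney expression table that carry these symbols, and all 10 were present, each with 1 row, among 12863 genes. The table holds 31 kidneys of the 13-lined ground squirrel (Ictidomys tridecemlineatus), a hibernator kept in captivity, 1 animal per column. The groups are 6 physiological states, and neither a genotype nor a drug treatment is given for the animals: each was implanted with a temperature recorder and taken by season and body temperature. SA animals (summer active, 5) and SpD animals (spring dark, 5, warm in the dark hibernaculum after their last torpor) are the active states. The hibernation states are Ent (entering torpor, 5), EAr (early in arousal and still cold, 5), LAr (later in arousal and part of the way rewarmed, 6) and IBA (interbout aroused, 5, rewarmed between bouts of torpor). All states held females and males, no ages were used here, and all animals were perfused with cold buffer before dissection. Each sample was a piece of a whole kidney, so its RNA can mix cortex and medulla and all of their cell types. LAr animal K113 and SA animal K137 were set aside, following the choice made for differential expression in the original work. The comparisons then used 29 animals, with n = 4 for SA and n = 5 for every other state. The values with all 31 animals, and with 28 after leaving out SpD animal K130 as well, stand beside them. For those with 31 and 28 animals the share of all genes that passed is not given, so their counts have no background.

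Endothelial cells line every vessel of the kidney. In the glomerulus they are thin and perforated and depend on VEGF-A released by the podocytes that face them, while the peritubular capillaries and vasa recta take up what the tubules reabsorb. VEGF-A acts through Kdr, Angiopoietin-1 acts through Tek to keep vessels quiet and tight, and shear stress acts through Nos3 to widen them. Expression is given as batch-corrected rlog, a regularised log2 read count: a difference of 1 is a 2-fold change within a gene. The values are not per transcript length, so levels were not compared between genes. Sequencing depth per sample is unknown, because the table holds no counts. In bulk tissue, fewer endothelial cells and less RNA per endothelial cell cannot be told apart.

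Of the 10 genes, 7 passed as lower in hibernating than in active kidneys (given in full below) and none as higher, against 16.8% of all genes lower. Against SA alone none passed (29.2% of all genes did), and against SpD alone 9 did (21.9%). Without K130 the SpD count was 2, with no share of all genes given. SpD was the state with the highest adjusted mean for 9 of the 10. Across the 6 states, 6 of the 10 passed the F test of limma at a Benjamini-Hochberg adjusted p (q) under 0.05, against 46.1% of all genes. Their q values were 0.00259 for Ehd3, 0.00415 for Eng, 0.0102 for Emcn, 0.011 for Cdh5, 0.0164 for Tek and 0.0343 for Nos3. The other members gave q = 0.0521 for Pecam1, 0.062 for Kdr, 0.117 for Nrp1 and 0.175 for Flt1. None passed the study's threshold of 0.001, which 9.34% of all genes did, while 8 had an unadjusted p under 0.05. In 28 animals Ehd3 did pass 0.001 (q = 0.000787). Without K130 the count was 3 (Emcn, Ehd3 and Eng), and with all 31 animals 4 (Kdr, Emcn, Ehd3 and Eng).

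**Figure D1:**
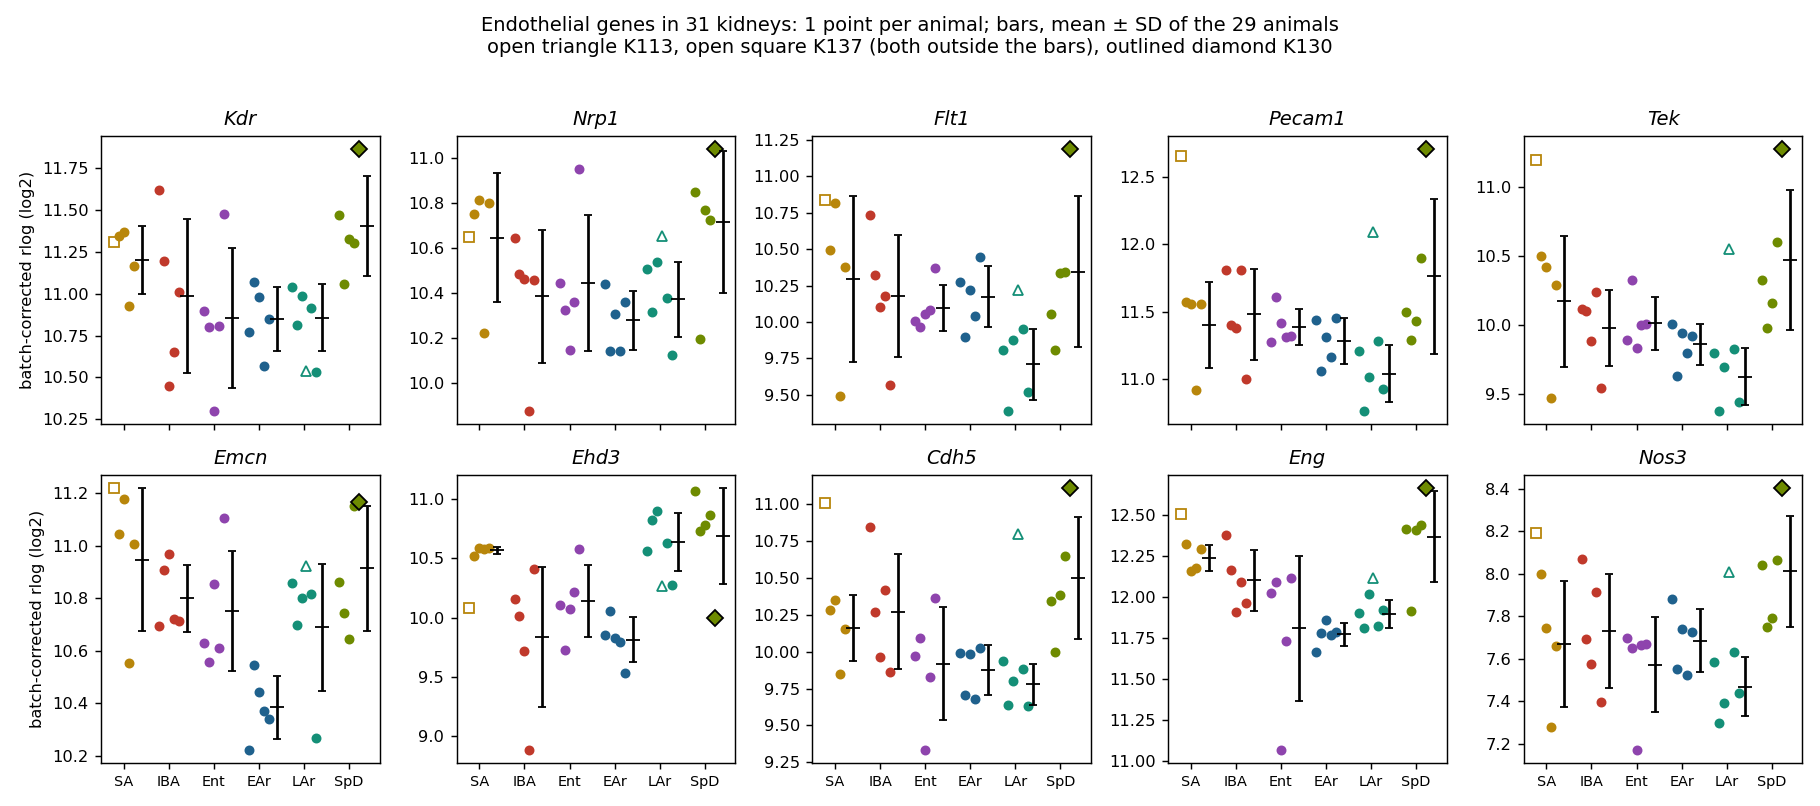
Batch-corrected rlog (log2, vertical axes) of the 10 genes in each of 31 kidneys, by state; bars give the mean ± SD of the 29 animals compared. The outlined diamond (K130), open square (K137) and open triangle (K113) stand above the rest of their states in Pecam1, Tek, Cdh5 and Nos3 and below them in Ehd3.

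3 kidneys stood apart from their groups in these genes, and the main counts below are therefore given for 29, 31 and 28 animals. K130 (SpD) was above all other SpD animals in 9 of the 10 genes, K113 (LAr) above all other LAr animals in 8, and K137 (SA) above all other SA animals in 7. Pecam1 was 12.71 in K130 against 11.29 to 11.89 in the other SpD kidneys, 12.66 in K137 against 10.92 to 11.57 in the other SA kidneys, and 12.09 in K113 against 10.76 to 11.29 in the other LAr kidneys. Ehd3 went the other way in all 3, with 9.996 in K130 against 10.73 to 11.07, 10.08 in K137 against 10.52 to 10.59, and 10.27 in K113 against 10.28 to 10.90. The mean of 5 other glomerular endothelial genes was high in all 3, unlike Ehd3. It was 10.99 in K130 (other SpD 9.94 to 10.56) and 11.21 in K137 (other SA 9.54 to 10.18). In K113 it was 10.52 (other LAr 9.36 to 9.9). The mean of 10 medullary genes was high in the same kidneys: 12.68 in K130 (other SpD 11.19 to 11.89), 13.53 in K137 (other SA 11.01 to 11.85) and 13.02 in K113 (other LAr 10.77 to 11.02). The mean of 12 proximal tubule genes was low in them, at 13.34 (14.50 to 15.30), 14.23 (15.19 to 15.46) and 13.96 (14.71 to 15.07). IBA kidney K104 also had a high medullary mean (12.55, other IBA 10.69 to 11.93) and a low proximal tubule mean (14.01, other IBA 14.14 to 14.86). Its mean of the 10 genes was not high: 10.28, within the 10.19 to 10.71 of the other IBA kidneys. How far the share of medulla in a piece set the endothelial values was not tested beyond the fits with these lists given below.

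The VEGF receptors come first. Kdr (gene3902) is VEGF receptor 2, the main signalling receptor for VEGF-A in endothelium, Flt1 (gene1285) is VEGF receptor 1, which binds VEGF-A tightly and also exists as a soluble decoy, and Nrp1 (gene13720) is a co-receptor that presents VEGF-A to Kdr. Kdr ranged from 10.93 to 11.37 in SA, 10.45 to 11.62 in IBA, 10.30 to 11.48 in Ent, 10.57 to 11.07 in EAr, 10.53 to 11.04 in LAr and 11.06 to 11.86 in SpD. All SpD kidneys but 1 lay above every EAr and LAr kidney, and K6, the lowest SpD kidney at 11.06, lay just under the highest EAr kidney. Its SpD mean was 11.40 ± 0.30 (SD, n = 5) against 10.85 ± 0.19 in EAr. Nrp1 ranged from 10.22 to 10.81 in SA, 9.88 to 10.64 in IBA, 10.14 to 10.95 in Ent, 10.14 to 10.44 in EAr, 10.12 to 10.53 in LAr and 10.19 to 11.04 in SpD. Each state's range overlapped the next. Flt1 ranged from 9.49 to 10.82 in SA, 9.56 to 10.73 in IBA, 9.97 to 10.37 in Ent, 9.90 to 10.44 in EAr, 9.39 to 9.95 in LAr and 9.81 to 11.19 in SpD. In hibernation minus active, Kdr differed by -0.42 ± 0.12 (SE; q = 0.0118) and Nrp1 by -0.31 ± 0.10 (q = 0.0205), and Flt1 by -0.28 ± 0.15 (q = 0.144), which did not pass.

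Tek (gene16702) is the receptor of the angiopoietins. It was 10.50, 10.42, 9.47 and 10.29 in the SA kidneys and 10.32, 9.98, 10.16, 10.60 and 11.27 in the SpD kidneys. It was 10.01, 9.63, 9.94, 9.80 and 9.92 in EAr and 9.80, 9.38, 9.69, 9.82 and 9.44 in LAr. Tek was lower in every LAr kidney of the comparisons than in every SpD kidney. The lowest SpD value was 9.98 and the highest LAr value 9.82, whereas SA kidney K140 (9.47) lay within the LAr range. With K113, the LAr kidney set aside, the states overlapped: it stood at 10.55, above SpD kidneys K3, K6 and K9. IBA kidneys ranged from 9.54 to 10.24 and Ent kidneys from 9.83 to 10.33. Hibernation minus active was -0.45 ± 0.12 (SE; q = 0.00721).

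Eng (gene4852), endoglin, is a co-receptor of the TGF-beta family that acts with the kinase Acvrl1 on BMP9 signals. It was 12.32, 12.16, 12.18 and 12.29 in SA and 12.42, 11.92, 12.41, 12.44 and 12.67 in SpD. In hibernation it was 12.38, 12.17, 11.91, 12.09 and 11.97 in IBA, 12.03, 12.10, 11.07, 11.73 and 12.12 in Ent, 11.67, 11.78, 11.86, 11.77 and 11.79 in EAr and 11.91, 11.81, 12.02, 11.83 and 11.92 in LAr. All 4 SA kidneys were above all EAr and LAr kidneys, and the spread within EAr was small (SD 0.07, n = 5) and within Ent large (SD 0.44, n = 5), where K8 stood at 11.07. Eng had the lowest q of the 10 genes for season, at -0.41 ± 0.09 (SE; q = 0.00114).

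Cdh5 (gene2301) is VE-cadherin, the adhesion protein of endothelial junctions, and Pecam1 (gene11288) is a second junction protein that is also found on leukocytes and platelets. Cdh5 was 10.34, 9.9996, 10.38, 10.65 and 11.11 in SpD, 10.84, 10.27, 9.96, 10.42 and 9.86 in IBA and 10.28, 10.35, 9.84 and 10.15 in SA. It was 9.97, 10.10, 9.34, 9.83 and 10.36 in Ent, 9.99, 9.70, 9.98, 9.68 and 10.02 in EAr and 9.93, 9.64, 9.80, 9.88 and 9.63 in LAr. LAr kidneys of the comparisons all lay below the lowest SpD kidney (K6), but IBA and LAr kidneys overlapped at K171 (9.86 in IBA). K113, the LAr kidney set aside, stood at 10.80, above every SpD kidney but K130. Pecam1 ranged from 10.92 to 11.57 in SA, 10.9997 to 11.81 in IBA, 11.28 to 11.61 in Ent, 11.06 to 11.45 in EAr, 10.76 to 11.29 in LAr and 11.29 to 12.71 in SpD. In hibernation minus active, Cdh5 differed by -0.37 ± 0.12 (SE; q = 0.0177) and Pecam1 by -0.28 ± 0.13 (q = 0.0828), which did not pass.

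Emcn (gene9096), endomucin, is a sialomucin of capillary and venous endothelium, abundant in glomeruli. It was 11.05, 11.18, 10.55 and 11.005 in SA and 10.22, 10.55, 10.44, 10.37 and 10.34 in EAr, and the lowest SA kidney (10.55) was level with the highest EAr kidney at this precision. EAr lay below all IBA, Ent and SpD kidneys, whose values ranged from 10.69 to 10.97, 10.56 to 11.10 and 10.64 to 11.17. LAr kidneys ranged from 10.27 to 10.86. Hibernation minus active was -0.27 ± 0.08 (SE; q = 0.0117).

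Nos3 (gene9957) is endothelial nitric oxide synthase. It ranged from 7.28 to 7.997 in SA, 7.40 to 8.07 in IBA, 7.17 to 7.70 in Ent, 7.52 to 7.88 in EAr, 7.30 to 7.63 in LAr and 7.75 to 8.41 in SpD. The SpD kidneys were all above the Ent kidneys and the LAr kidneys of the comparisons. The LAr kidney set aside, K113, had 8.01, above SpD kidneys K6 (7.75) and K9 (7.79). Nos3 differed by -0.23 ± 0.09 (SE; q = 0.0547) for season, just outside the threshold.

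Ehd3 (gene6058) is an endocytic recycling protein that in mouse kidney marks the glomerular endothelium. It was 10.52, 10.59, 10.58 and 10.58 in SA and 11.07, 10.73, 10.78, 10.86 and 9.996 in SpD. In LAr it was 10.56, 10.82, 10.90, 10.63 and 10.28, as high as in the active states, and in EAr it was 9.86, 10.06, 9.82, 9.80 and 9.53. Every EAr kidney lay below every LAr kidney, with no overlap between 10.06 and 10.28, but the test did not pass (q = 0.119). The share of all genes separating states in this way was not counted, here or for the other genes above. In IBA it was 10.16, 10.01, 9.72, 8.89 and 10.41, K104 being lowest, and in Ent 10.10, 9.73, 10.08, 10.21 and 10.58. Ehd3 had the most negative seasonal difference of the 10 genes, -0.52 ± 0.13 (SE; q = 0.00468), so it fell by 30.3% on average. Adjusted for sex and experiment, its LAr mean was the highest (10.68) and its IBA mean the lowest (9.81) of the 6, but both ends were close calls that included K130 (SpD) and K104 (IBA). Its unadjusted means put SpD highest (10.69, against 10.64 in LAr) and EAr lowest (9.81, against 9.84 in IBA).

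All 10 genes were lower in hibernation (the mean of IBA, Ent, EAr and LAr) than in the active states (the mean of SA and SpD), and 7 passed the test, all lower: Kdr, Nrp1, Tek, Emcn, Ehd3, Cdh5 and Eng. In the table as a whole 33.4% of genes passed, 16.8% of all genes in the lower direction, and 49.9% of genes had a negative difference. The median over the 10 genes was -0.34, and over all genes 0.00. None passed 0.001, against 9.73% of genes. Leaving out 1 animal at a time kept between 5 and 10 of them past the test: Nrp1 was lost without SA K139 or K141, and Cdh5 without K139. With all 31 animals 8 passed (Nos3 too, q = 0.047), and with 28 animals the same 7 did, with no share of all genes given for either.

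The 2 active states did not carry this equally. Against SA alone, all 10 differences were negative but none passed (29.2% of genes did), and 3 had an unadjusted p under 0.05. Ehd3 was nearest, at -0.50 ± 0.19 (SE; q = 0.0501). With all 31 animals 1 passed, Eng (-0.35 ± 0.12, q = 0.0305). Against SpD alone, 9 passed (21.9% of genes did), Flt1 being the exception at -0.36 ± 0.19 (q = 0.187). The SpD count changed with K130: without it 2 of the 10 passed, Ehd3 (-0.76 ± 0.19, q = 0.0125) and Eng (-0.47 ± 0.14, q = 0.0296), and with all 31 animals 6 did. The share of all genes is not given for these sets, so the fall could not be set against all genes. The difference between SA and SpD was itself negative in all 10 genes and passed in none (10.5% of genes), with 3 under an unadjusted p of 0.05. The plot of seasonal differences sets the 3 sets of animals side by side.

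**Figure D2:**
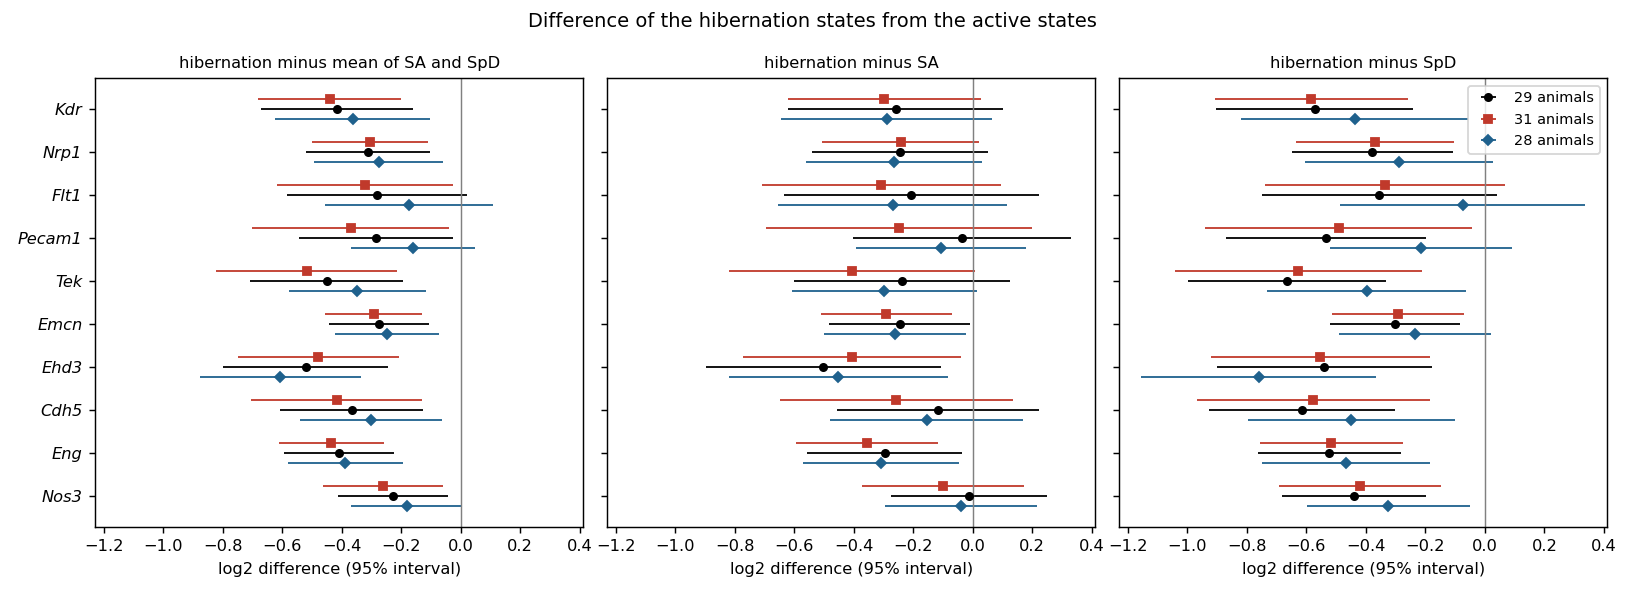
Difference between the hibernation states and both active states, SA alone or SpD alone (log2, horizontal axes; 95% interval) for each gene, with 29, 31 and 28 animals. All 10 points lie below 0 in the first panel in each of the 3 sets, and in the SpD panel the 28-animal intervals of Flt1, Nrp1, Pecam1 and Emcn cross 0.

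The values came from 2 experiments with different library kits, and SA, EAr and LAr kidneys were in experiment 2 only. Within experiment 1, the IBA and Ent kidneys minus the SpD kidneys gave negative differences in 7 of the 10 genes, from -0.88 to 0.14, and 1 passed (Ehd3, q = 0.0443). In experiment 2 the same comparison gave 10 negative differences, from -0.99 to -0.39, and 5 passed: Pecam1, Tek, Cdh5, Eng and Nos3. There, SpD was K84 and K130 alone. The share of all genes passing is not given for either experiment, so these counts have no background beside them. The difference of experiment 2 from experiment 1 in SpD minus IBA passed for none of the 10 genes after adjustment (lowest q = 0.387), with unadjusted p of 0.0192 for Flt1, 0.0247 for Pecam1 and 0.0308 for Tek; none of the 12863 genes passed that interaction.

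Comparing each state with the next around the cycle, few of the 10 genes passed. From IBA to Ent none did (13.1% of genes), from Ent to EAr none (0.257%) and from EAr to LAr none (0.575%). The EAr to LAr comparison contained the Ehd3 difference above, 0.80 ± 0.21 (SE; q = 0.119), which did not pass over all genes. Between SA and IBA, Ehd3 alone passed, lower in IBA by -0.81 ± 0.25 (q = 0.0213), where 22.9% of genes did, and leaving out K104 gave -0.42 (q = 0.173). IBA kidneys had a lower Ehd3 than LAr kidneys (-0.87 ± 0.24, q = 0.0139) and a higher Cdh5 (0.64 ± 0.20, q = 0.0313), the 2 members of 10 that passed against 18% of genes. That count was near the share of all genes and is no result about the 10 as a set. In 14 alternative settings Cdh5 did not pass in 7, and Ehd3 in 3. With the medullary mean as a term Cdh5 was 0.36 ± 0.20 (q = 0.316). Without IBA K104 neither passed, without LAr K111 or K116 Cdh5 did not, and without IBA K171 the count was 6. SpD minus IBA was positive in all 10 genes but passed in Ehd3 alone (0.85 ± 0.21, q = 0.0103), against 11.9% of genes. Without K130 the Ehd3 difference was 1.02 ± 0.21 (q = 0.00233).

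In the cool states (Ent, EAr and LAr together), Cdh5 was lower than in IBA by -0.52 ± 0.16 (SE; q = 0.0206) and Eng by -0.34 ± 0.12 (q = 0.0435), where 26.3% of genes passed. The 2 of 10 did not exceed that share. Neither gene held with all 31 animals, and leaving out 1 animal at a time gave 0 to 5 members. At the study's threshold of 0.001 none of the 10 genes passed in any of these comparisons, and the shares of all genes that did were 0.0544% between SA and SpD, 3.15% between IBA and SA, 0.746% between Ent and IBA, 0.132% between EAr and Ent, 0.295% between LAr and EAr, 1.43% between IBA and LAr, 1.25% between SpD and IBA and 3.66% between the cool states and IBA. No member differed between males and females at q under 0.05.

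**Figure D3:**
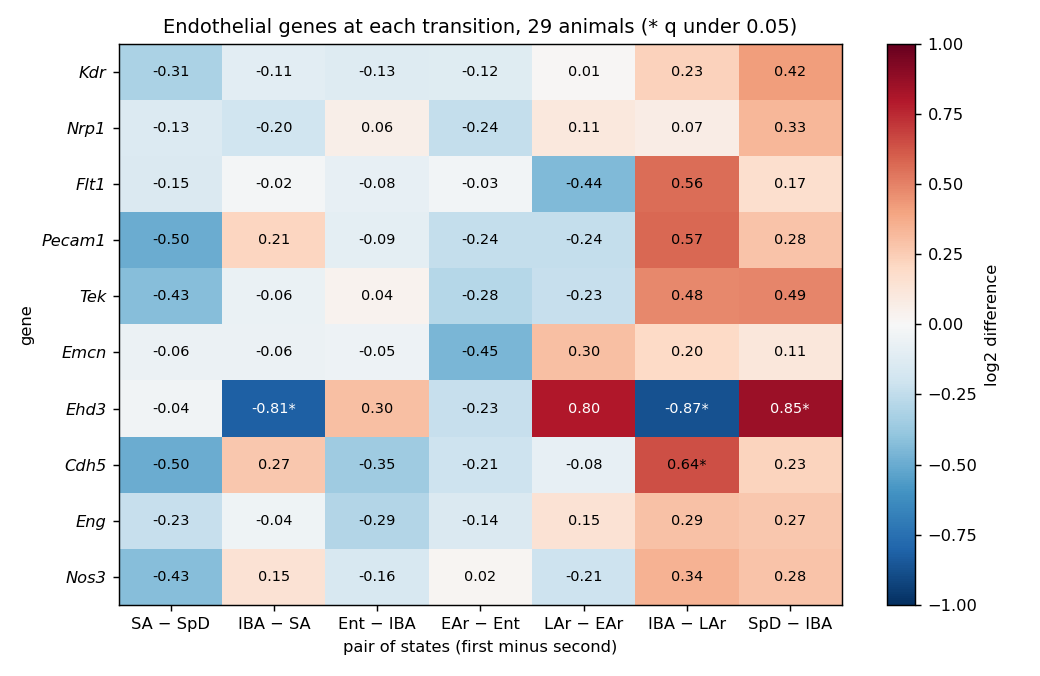
Difference in log2 expression (colour and number) of each gene between states that follow each other, first state minus second, in 29 animals; an asterisk marks q under 0.05. The marked cells are 4: Ehd3 in IBA against SA, IBA against LAr and SpD against IBA, and Cdh5 in IBA against LAr.

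The order of the adjusted state means had SpD first in 9 genes, and the last place went to EAr (Kdr, Nrp1, Emcn and Eng), to LAr (Flt1, Pecam1, Tek, Cdh5 and Nos3) or to IBA (Ehd3). No 2 states next to each other in a gene's order differed at q under 0.05. The ends of the orders did in every gene but Flt1 (SpD against LAr, q = 0.05, not under the threshold). EAr and LAr were then each set against SpD in all 10 genes, whether or not they were the ends. EAr was lower than SpD in 7 of the 10 genes (19.2% of all genes passed, and 1.98% at 0.001, none of them a member). LAr was lower in 6 (19.1%, and 2.01% at 0.001, again no member). These comparisons were added after the orders were seen, and their q values and those of the ends take no account of that choice. Tek had the most negative difference of LAr from SpD, -0.97 ± 0.22 (SE; q = 0.00406), and Cdh5 of EAr from SpD, -0.79 ± 0.21 (q = 0.0102). Without K130 the counts were 3 (Emcn, Ehd3 and Eng) for EAr and 0 for LAr, where Tek was -0.65 ± 0.21 (q = 0.0636). With all 31 animals they were 5 for EAr and 4 for LAr. With the medullary mean as a term in the fit they were 4 for EAr and 0 for LAr, where Tek was -0.49 ± 0.19 (q = 0.14). The 10 medullary genes were themselves lower than in SpD, with medians of -0.61 in EAr and -0.79 in LAr. The medians of the 10 endothelial genes were -0.64 in both. Ehd3 was level in LAr and SpD, 0.02 ± 0.24 (q = 0.965). Among the other pairs, Emcn, Ehd3 and Eng were higher in SA than in EAr (24.1% of genes passed), Emcn was higher in IBA than in EAr by 0.50 ± 0.14 (q = 0.0193; 17.7% of genes passed), and Cdh5, Eng and Nos3 were lower in Ent than in SpD (10.6% of genes passed).

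Most pairs of the 10 genes rose and fell together from animal to animal, and the pairs with Ehd3 did so less in these 29 animals. Over the 29 animals the 36 pairs without Ehd3 had a Pearson's r of 0.32 to 0.94 (median 0.66), and the 9 pairs with Ehd3 had -0.26 to 0.50 (median 0.00). Pecam1 and Tek were the most alike pair (0.94), and Pecam1 and Ehd3 the least (-0.26). Over deviations from state means, the pairs without Ehd3 kept a median of 0.59, and the pairs with Ehd3 had a median of -0.22. These are descriptions over animals that share states and library kits. With K130 left out, the medians were 0.60 and 0.07 over values and 0.53 and -0.01 over deviations. There Ehd3 had an r of 0.60 with Nrp1 and 0.57 with Kdr over deviations, within the range of the other pairs.

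**Figure D4:**
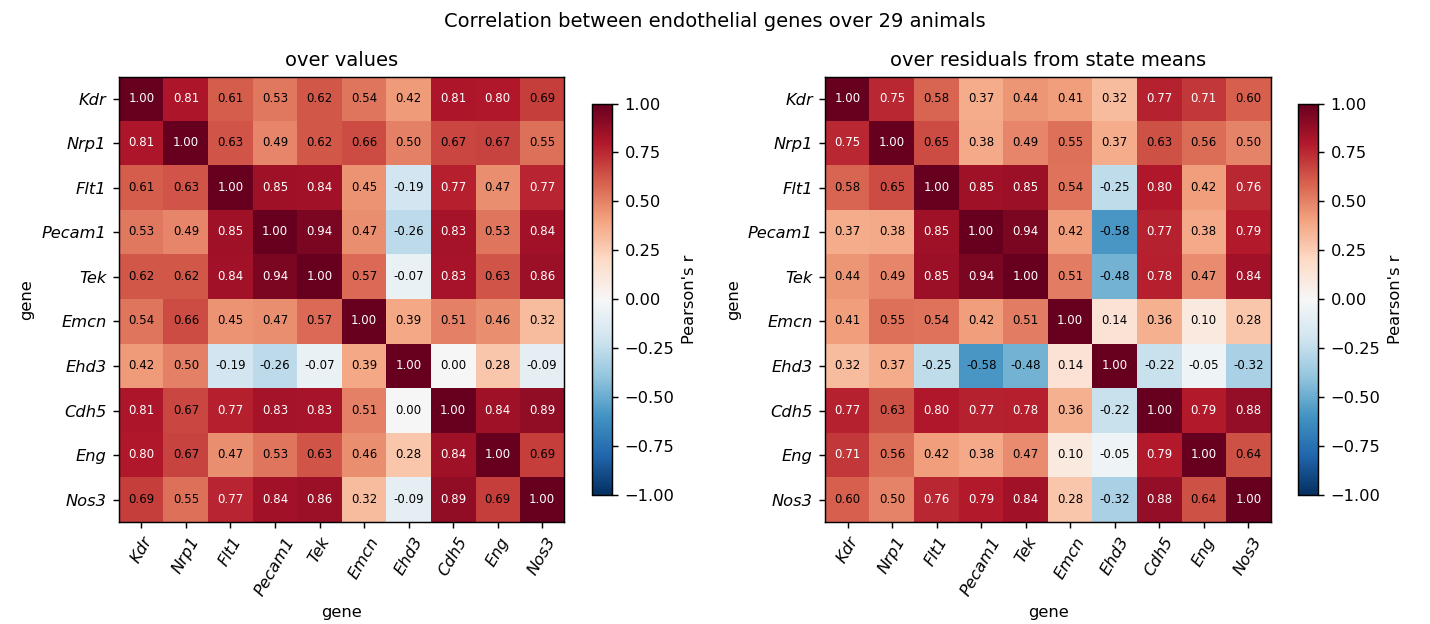
Pearson's r (colour and number) between each pair of the 10 genes over the values of 29 animals (left) and over deviations from state means (right). The median of the Ehd3 pairs is 0.00 on the left and -0.22 on the right, against 0.66 and 0.59 for the other pairs; K130 is among the animals.

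The 10 genes were also set beside lists of cell type genes. The mean of 33 other endothelial genes had r of 0.90 with Tek, 0.92 with Pecam1, 0.91 with Cdh5 and 0.89 with Nos3, and -0.09 with Ehd3. The lowest r among the 9 genes other than Ehd3 was 0.55, for Emcn. Ehd3 went with 11 podocyte genes (r 0.65, and 0.81 over deviations from state means), and Tek and Pecam1 went with the 10 medullary genes (0.76 and 0.81). Without K104 and K130 these values were 0.51 for Ehd3 with the podocyte genes (0.46 over deviations) and 0.69 and 0.70 for Tek and Pecam1 with the medullary genes. Over deviations without these kidneys the podocyte genes had an r of 0.61 with Kdr, 0.48 with Eng, 0.46 with Nrp1 and 0.45 with Cdh5, so Ehd3 did not stand apart there. The podocyte mean was lowest in K104 (9.54) and K130 (9.75), where the other IBA kidneys had 10.28 to 10.72 and the other SpD kidneys 10.70 to 10.92. In these same kidneys Ehd3 was the lowest of its state. The podocyte genes were themselves lower in IBA than in LAr: 7 of 11 passed (median -0.78), against 18% of all genes. A term made from them therefore differs between these states. With the podocyte mean as a term in the fit, the difference of IBA from LAr in Ehd3 was -0.24 ± 0.17 (SE; q = 0.373). The seasonal difference of Ehd3 was then -0.51 ± 0.08 (q = 3.81e-05), and 8 of the 10 genes passed for season. With the medullary mean as a term, 6 passed for season, Ehd3 among them (-0.68 ± 0.11, q = 5.44e-05), and Cdh5 no longer did (-0.26 ± 0.11, q = 0.067). The medullary mean differed between states as well: 10.86 ± 0.1 in LAr, 11.59 ± 0.7 in IBA and 11.74 ± 0.58 in SpD (SD, n = 5 each). This term too is therefore not independent of state. The share of all genes passing is not given for the fits with these terms. With every value taken relative to the mean of the other endothelial genes, all 10 were still lower in hibernation, from -0.37 to -0.08, and Tek, Eng and Cdh5 passed, where 28.1% of all genes did.

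**Figure D5:**
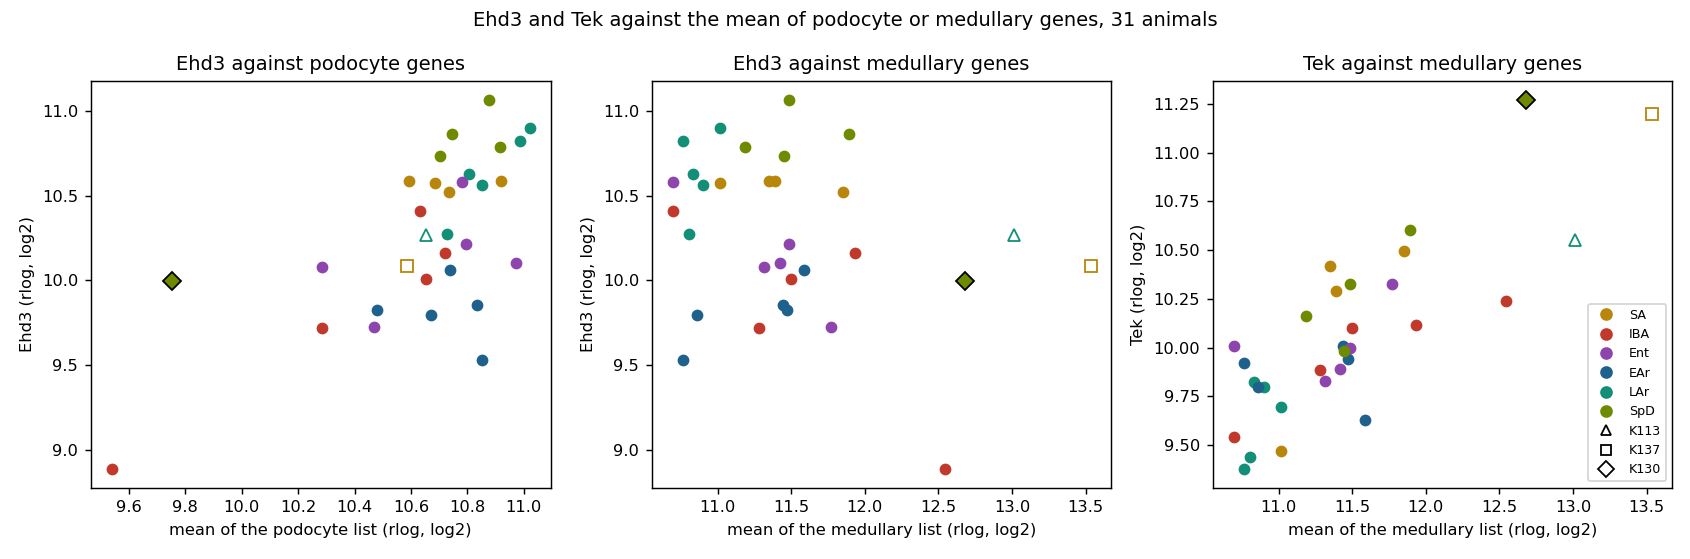
Ehd3 against the mean of 11 podocyte genes (left) and of 10 medullary genes (middle), and Tek against the medullary mean (right), 1 point per kidney of 31 (log2 axes). Ehd3 rises with the podocyte genes, with K104 at the lower left, and Tek rises with the medullary genes, with K130 and K137 at the upper right.

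The ligands and partners of these receptors were read from lists of their pathways, leaving out the 10 genes themselves. Their counts are to be read against the 33.4% of all genes that passed for season and the 16.8% that were lower. In the VEGF, BMP9 and TGF-beta and other endothelial lists the genes passing were near or below the first share. The lower genes exceeded the second share by a few genes at most, so these counts are no result about the lists. Of 10 VEGF ligands and other VEGF receptors and partners in the table, 3 were lower in hibernation and 1 higher, with a median difference of -0.13. Flt4, the receptor of VEGF-C in lymphatic and some blood vessels, was lower (-0.36 ± 0.10, q = 0.00764). Vegfa, the podocyte and tubule ligand of Kdr, had means of 12.82 ± 0.25 in IBA, 13.18 ± 0.17 in LAr, 13.10 ± 0.23 in SpD and 13.06 ± 0.20 in SA, with a seasonal difference of -0.10 (q = 0.316). It was lower in IBA than in LAr (-0.44, q = 0.0198). Of 5 genes of the angiopoietin and Tie system, 2 were lower in hibernation: Angpt2, the antagonist that endothelium releases (-0.61 ± 0.22, q = 0.0343), and Svep1, a matrix protein that binds Tie1 (-0.36 ± 0.11, q = 0.0111). Angpt1 (0.07, q = 0.579), Tie1 (-0.05, q = 0.689) and the phosphatase Ptprb (-0.44, q = 0.0743) did not pass.

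The next lists hold partners of Eng and of Nos3. Of 15 genes of the BMP9 and TGF-beta list 3 were lower and 1 was higher in hibernation: Acvrl1, the kinase that acts with Eng, was -0.23 ± 0.06 (q = 0.00256), Id2, a target gene, was 0.63 ± 0.09 (q = 1.2e-05), and Bmpr2 was 0.10 (q = 0.402). Of 17 genes of nitric oxide production and caveolae 7 were lower and 2 higher. Klf2 and Klf4, the flow-responsive transcription factors that raise Nos3, were lower by -0.44 ± 0.07 (q = 5.46e-05) and -0.38 ± 0.08 (q = 0.00104). Akt1, a kinase that activates Nos3 protein, was higher (0.20 ± 0.03), and Cav1, the caveolar protein that holds Nos3 inactive, was -0.12 (q = 0.342).

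The remaining lists hold other endothelial genes and other cells. Of the 33 other endothelial genes 8 were lower and 1 higher (median -0.16), Egfl7 and Sox7 among the lower (-0.19 and -0.28). Plvap, the diaphragm protein of peritubular capillaries, fell by 0.50 on the log2 scale (SE 0.10, q = 0.000346), within a list of 6 peritubular and vasa recta genes of which 4 were lower. Vwf differed by -0.03 (q = 0.898). Of 5 glomerular endothelial genes other than Ehd3 and Emcn, 2 were lower (median -0.18). Between IBA and LAr none of these 5 passed, and their median was 0.22, where Ehd3 was -0.87. Of 10 activation genes 7 were lower and 1 higher, Esm1, a gene that VEGF induces, at -1.20 ± 0.15 and Edn1, the vasoconstrictor endothelin-1, at 0.74 ± 0.09. Lists of other kidney cells held lower genes as well. Of 6 loop of Henle and distal tubule genes 3 were lower (median -0.46) and of 7 fibroblast genes 3 (median -0.55), both medians more negative than the -0.34 of the 10 genes. Of 12 mesangial and mural genes 5 were lower (median -0.27), and of 10 collecting duct genes 5 (median -0.32). Of 12 proximal tubule genes 3 were lower (median -0.14) and of 6 macrophage genes 1. Of 10 medullary genes 2 were lower and 1 higher, with a median of -0.29. The counts of lower genes in these lists were near the 16.8% of all genes and are no result about them. Of 11 podocyte genes 1 was higher and none lower. Apart from the fits with the podocyte and medullary means, the part of these cells in the values of the 10 genes was not tested.

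By Pearson's r over 29 animals, the genes of the whole table most like the mean of the 10 standardised genes were Epas1 (0.95), Smad9 (0.92), Dlc1 (0.91), Sox7 (0.90) and Arap3 (0.90). Over deviations from state means they were Epas1 (0.93), Asap1 (0.90), Clec14a (0.89), Fat4 (0.88) and Pde2a (0.88). For Ehd3 alone, a choice made after its values were seen, Pi16 (0.81), Vegfa (0.80) and Nphs1 (0.75) came first over values, and Tdrd5 and Plce1 over deviations. Nphs1 encodes nephrin of the podocyte slit diaphragm.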

How the data were processed

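Kidney RNA-seq of 31 animals was used. The authors used cutadapt for trimming, HISAT2 to set aside mitochondrial reads and Salmon to quantify transcripts, which were summed by gene and filtered at a minimum rlog. The deposited values are log2 (DESeq2 rlog) after the authors corrected them for the 2 experiments (library kits) with limma, and versions are not given in the sources used here. Counts and depth are therefore unknown. Only IBA, Ent and SpD were in both experiments, so for SA, EAr and LAr state and kit rest on that correction and the experiment term.

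The 12863 genes were fitted in limma 3.58.1 (R 4.3.3) with state, sex and experiment as terms, moderated with an intensity trend, and p-values were adjusted by Benjamini-Hochberg over all genes within a comparison. A gene was called at q under 0.05. Limma replaced a count test because the table holds no counts. Adjusted means are at equal shares of sexes and experiments. The 10 genes and all lists were chosen with earlier results of these data known. Other genes were named by list: at most the 4 of a list with the lowest F test q, 12 preset partners of the 10 genes, and the 5 most correlated with them. No column of another sample was used. Scripts were tested on simulated data. Replicates are separate animals.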

Additional observations from a re-analysis of the deposited data

Results flagged for a closer look

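Each of the 10 genes was examined in each of the 6 states over all 31 animals for a kidney whose gap to its nearest neighbour was a large share of the group's range (Dixon's 95% limit). Of 60 groups 7 passed, where chance gives about 3. Nrp1 was 10.22 in SA K140, with the nearest SA kidney at 10.65, and 9.88 in IBA K104, with the nearest at 10.46. Flt1 was 10.37 in Ent K167 against 10.08. Emcn was 10.27 in LAr K116 against 10.70. Ehd3 was 10.08 in SA K137 against 10.52, and Cdh5 was 10.80 in LAr K113 against 9.93; both animals were outside the 29 compared. Nos3 was 7.17 in Ent K8 against 7.65.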

How the results depend on the processing

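Values are the number of the 10 genes past q under 0.05. Shares of all genes are given below for the centring only, and none is given for the counts with 28 or 31 animals. Leaving out 1 animal at a time gave 3 to 9 across the 6 states, 5 to 10 for season, 0 to 2 for SA and SpD, 0 to 1 for IBA and SA, 0 to 1 for LAr and EAr, 0 to 6 for IBA and LAr, 1 to 2 for SpD and IBA, 0 to 5 for the cool states and IBA, 3 to 9 for EAr and SpD, and 0 to 8 for LAr and SpD. The animals that moved these counts most were K130, K104 and K171: without K130 the count across states was 3, EAr and SpD 3 and LAr and SpD 0; without K104 the IBA and SA count was 0 and IBA and LAr 0; without K171 IBA and LAr was 6. A threshold of 0.001 gave 0 for every comparison with a call. Centring on the other endothelial genes gave 3 across states, 3 for season, 1 for IBA and LAr, 0 for SpD and IBA, 1 for the cool states, 2 for EAr and SpD and 3 for LAr and SpD, where 28.1% of all genes passed for season, 46.7% for EAr and SpD and 65.1% for LAr and SpD. The medullary term gave 3 across states, 0 for IBA and LAr, 2 for SpD and IBA, 0 for the cool states, 4 for EAr and SpD and 0 for LAr and SpD. The podocyte term, added after seeing the data, gave 0 for IBA and SA, 1 for LAr and EAr, 0 for IBA and LAr, 2 for SpD and IBA and 0 for the cool states. Fits of 2 states alone gave 0 for IBA and SA, 1 for LAr and EAr, 0 for IBA and LAr and 0 for SpD and IBA. Animal weights gave 1 for LAr and EAr, 5 for IBA and LAr and 4 for EAr and SpD. Experiment 2 alone gave 5 for SA and SpD, 1 for IBA and LAr and 0 for the cool states. All 31 animals gave 0 for IBA and SA, 1 for IBA and LAr and 0 for the cool states. For the cool states the count was also 1 without K130, 0 without the experiment term, 1 without the sex term and 1 after median centring, and IBA and LAr gave 1 without the experiment term. SA alone as the active state, also chosen after seeing the data, gave 0 for season. The causes were not tested. Among the differences of the 10 genes for which alternatives were run, no called one changed sign. The other named genes, and the SA and EAr, IBA and EAr and Ent and SpD calls, had no alternatives run. The counts for Ent and IBA and for EAr and Ent were 0 in all of them. No paired analysis was possible because replicate numbers are animal names that no 2 states share.

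Limits: 4 or 5 animals per state, with SA, EAr and LAr in 1 experiment, pieces of mixed cortex and medulla, and unknown depth.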
